A study of Rattus norvegicus with 6 samples.

Results

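Genes for the parts of the protein-making apparatus were followed in the rat tumor lines JA, JB and Amy, 3 cell lines of the esophagus. Each line was set against a 1:1 pool of 2 normal rat esophageal cell lines. The members are all genes whose symbol on the array's platform annotation marks a cytosolic ribosomal protein (Rps, Rpsa, Rpl, Rplp), a mitochondrial ribosomal protein (Mrps, Mrpl), an initiation factor (Eif) or an elongation factor (Eef). The ribosomal S6 kinases, Eif2s1 and Eif4ebp2 were left out by the rule. This gave 75 genes, out of 3158 named genes and 7180 features on the array: 11 small-subunit, 19 large-subunit and 25 mitochondrial ribosomal protein genes, 18 genes with Eif symbols and 2 with Eef symbols. The rule reads gene symbols alone. The class called initiation factors is all genes with Eif symbols. It thus also holds Eif4ebp1 and Eif2ak2, which hold initiation back, and Eif5a, which acts while the peptide grows. JA, JB and Amy are lines from esophageal tumors that arose under reflux, the backflow of stomach contents. Total RNA of each line was hybridized together with RNA of the pool to 2 cDNA arrays, the second with Cy3 and Cy5 swapped. Each tumor line is a single cultured line, and any treatment, age or strain is not given in the sources used here.

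The cytosolic ribosome joins a small subunit, which reads the messenger RNA, to a large subunit, which forms the peptide bond. Initiation factors bring the small subunit, the initiator transfer RNA and the capped message together, and elongation factors then drive the ribosome along it. A separate ribosome inside mitochondria, built from nuclear-encoded Mrp proteins, makes a small set of respiratory chain subunits. Most cytosolic ribosomal protein messages start with a short run of C and T bases through which growth signals adjust their translation.

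The measured value is a log2 ratio of tumor line over normal pool, so 1 is a 2-fold higher level in the line and -1 a 2-fold lower level. The direction is likely rather than settled, because it comes from the order of names in the sample titles, and the log base is taken from the range of the values. Since a line's 2 arrays repeat the same RNAs with swapped dyes, they were averaged, leaving 3 lines as replicates, and a gene was called at an adjusted p under 0.05 (limma, Benjamini-Hochberg over all 7180 features). The p-values rest on how far these 3 lines differ and leave out any spread of the pool. The 2 arrays of a line correlated at 0.815 to 0.888 across features, and array medians lay between -0.15 and -0.05. The markers used to describe the samples were listed with earlier results of these data known. Over all features 20.7% were called higher and 32.8% lower. Of the markers, 7 of 8 measured fibroblast and matrix genes were lower (median -4.31, range -8.999 to 0.53), as were 6 of 7 leukocyte genes (median -3.86, range -5.22 to 0.67) and 4 of 4 muscle genes (median -3.68, range -5.11 to -1.82). Of 4 measured esophageal epithelial genes, out of 16 listed, 1 was higher and 2 were lower (median -0.13, range -5.82 to 1.98), and of 10 proliferation genes 8 were higher and 2 lower (median 2.07). A ratio does not show whether a marker is absent from either side. The number of cells of a type and the RNA per cell cannot be told apart, and the part of the marker differences in the values below was not tested.

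Of the 75 genes, 35 were called, 22 higher and 13 lower in the tumor lines, which is 46.7% of them. Over all features the share called was 53.5%. The 22 higher genes are 29.3% of the members, against 20.7% of all features called higher, and the 13 lower genes are 17.3%, against 32.8% of all features called lower. The median log2 ratio of the members was 0.14, against -0.12 for all features. Their differences were small: 8 of 75 reached 1 in size (10.7%), against 22.3% of all features, and the median size was 0.39 against 0.50. A single sign on all 6 arrays was seen for 35 members, or 46.7%, against 55.9% of all features. With each array centred on its median, which raised the median of all features by 0.12, 27 members were higher and 10 lower, against 25.4% of all features higher and 28.0% lower.

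The calls were split by class as follows, beside 20.7% of all features called higher and 32.8% lower. Initiation factors, meaning all genes with Eif symbols, had 7 higher (38.9%) and 1 lower (5.56%) of 18, with a median of 0.37. Their higher genes include Eif4ebp1, which holds translation back, and Eif5a. The mitochondrial ribosome had 9 higher (36%) and 4 lower (16%) of 25, with a median of 0.29. The large subunit of the cytosolic ribosome had 5 higher and 5 lower of 19 (26.3% each) with a median of 0.00 (0.12 with centred arrays). The small subunit had 0 higher and 2 lower (18.2%) of 11 (2 at an unadjusted p under 0.05), with a median of -0.20. The small-subunit median was -0.08 with centred arrays, where 1 gene was lower, and -0.05 without JA (-0.08 without its Cy3 array). The large-subunit median took either sign with a line left out, from -0.13 without JB to 0.03 without JA, and was -0.23 with the median over spots. The mitochondrial median was 0.19 without JA. No test was made of the difference between classes.

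**Figure D1:**
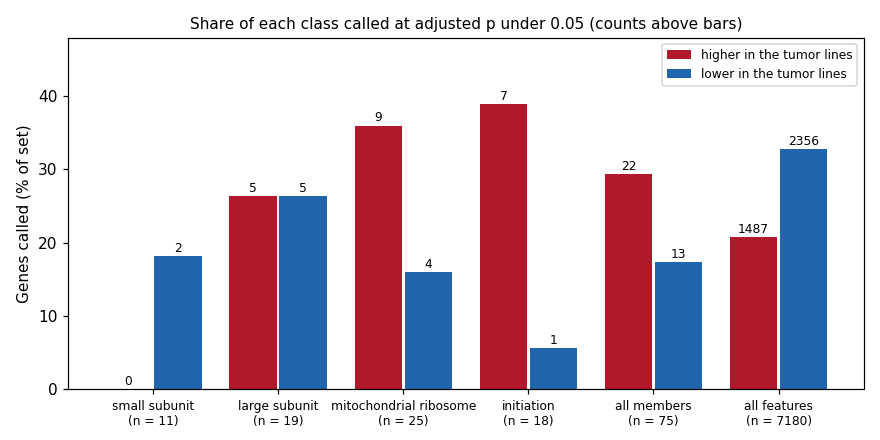
Share of the genes of each class called higher (red) or lower (blue) in the 3 tumor lines at an adjusted p under 0.05, in percent of the class, with the counts above the bars; all members and all 7180 features stand on the right. Initiation factors (all genes with Eif symbols) and the mitochondrial ribosome have the taller red bars (7 of 18 and 9 of 25). Over all features the blue bar is taller (2356 lower, 1487 higher).

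RefSeq promoter windows of build GRCr8 matched 63 of the 75 genes, by gene identifier. Only the first listed window of a gene was used, so its start need not be that of the gene's other transcripts. The letters CTTTCC, read on the transcript's strand from 15 bases before to 45 bases after the annotated start, were present in 11 of 27 cytosolic ribosomal windows (40.7%), in 0 of 20 mitochondrial ribosomal windows, in 0 of 14 windows of initiation factors and in 0 of 2 of elongation factors. Among all 27457 genes with a window the share was 2.63%, and on the other strand it was 2.72%. The letters were chosen after the sequences were seen, and a match is no proof of a site. The 4 starts shown here belong to 1 gene that rose, 2 that fell and 1 that was not called, and capitals mark the letters searched.
Rpl19: gaccagcaagctCTTTCCtttcgctgctgc
Rplp1: gcgcatgtgatcCTTTCCtcagctgccgcc
Rps27: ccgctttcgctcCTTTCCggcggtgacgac
Rpl13: cggtgcccgatcCTTTCCgctcggccgttc
They lie at chr10:83519052-83519081 on the plus strand, chr8:71290854-71290883 on the minus strand, chr2:177964588-177964617 on the minus strand and chr19:68062504-68062533 on the plus strand. In Rpl19 the letters begin at the annotated start of the window used, which lies inside the gene's annotated span of chr10:83514509-83522352. The starts used for Rps27 and Rpl13 also lie inside their spans of chr2:177963499-177964708 and chr19:68062442-68065065. The 11 cytosolic genes with the letters had a median log2 ratio of -0.08, with 2 higher and 3 lower. The 16 without them had a median of -0.11, with 3 higher and 3 lower.

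A second stretch of letters was counted in the same windows. CCGGAAG, the core bound by ETS-family factors, was present on either strand from 100 bases before to 50 bases after the start in 10 of 20 mitochondrial ribosomal windows (50%). It was present in 3 of 16 large-subunit windows (18.8%), 1 of 11 small-subunit windows (9.09%), 3 of 14 initiation factor windows (21.4%), 0 of 2 elongation factor windows and 6.60% of all windows. The example genes are 3 that rose and 1 that fell, with the letters or their reverse complement CTTCCGG in capitals.
Mrps18b: tgcgcagtcgttCTTCCGGcaggccgtacg
Mrpl30: tccgttccgctcCTTCCGGctgctgggggg
Mrpl36: ggctttatctccCCGGAAGcatgagcctta
Mrps21: ccgtagcttccgCTTCCGGtacggagggta
The stretches lie at chr20:2842991-2843020 on the plus strand, chr9:47621225-47621254 on the plus strand, chr1:31795179-31795208 on the minus strand and chr2:186103327-186103356 on the minus strand. The starts used for Mrps18b and Mrpl36 lie inside the annotated gene spans of chr20:2842978-2849065 and chr1:31794025-31797446. The 10 mitochondrial genes with the letters had a median log2 ratio of 0.34, with 4 higher and 3 lower, and the 10 without them had a median of 0.22, with 4 higher and 1 lower. No test was made of either difference.

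In the large subunit of the cytosolic ribosome the 5 genes that rose did so by 1.32-fold to 1.65-fold. The ribosomal stalk, the flexible arm that recruits the elongation factors, was split. Its base protein Rplp0 had log2 ratios of 0.51 and 0.69 in JA, 0.51 and 0.64 in JB and 0.84 and 0.93 in Amy (line in Cy3, then in Cy5). All 6 arrays lay above 0, and the mean was 0.69 ± 0.17 (SD, n = 3, limma adjusted p = 0.00876). Its partner Rplp1 had -0.89 and -0.50 in JA, -0.77 and -0.53 in JB and -0.47 and -0.15 in Amy. All 6 lay below 0, with a mean of -0.55 ± 0.21 (limma adjusted p = 0.0207), or 1.46-fold lower. The other acidic stalk protein, Rplp2, was close to 0 at 0.05 ± 0.20 and was not called.

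Rpl21 had 0.18 and 0.41 in JA, 1.24 and 1.34 in JB and 0.45 and 0.73 in Amy. Both JB arrays lay above those of the other 2 lines, and the mean was 0.73 ± 0.51 (limma adjusted p = 0.0378). Rpl6 had 0.19 and 0.75 in JA, 0.28 and 0.89 in JB and 0.30 and 0.74 in Amy, for a mean of 0.53 ± 0.06 (limma adjusted p = 0.0138). In all 3 lines the array with the line in Cy5 was the higher one. Rpl19 had 0.79 and 0.70 in JA, 0.71 and 0.37 in JB and 0.24 and 0.23 in Amy, with Amy lowest and a mean of 0.51 ± 0.26 (limma adjusted p = 0.0335). Rpl18 had 0.04 and 0.60 in JA, 0.45 and 0.74 in JB and 0.11 and 0.49 in Amy, for a mean of 0.41 ± 0.16 (limma adjusted p = 0.0434). All 12 of the Rpl19 and Rpl18 values were above 0.

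Besides Rplp1, 4 large-subunit genes fell. Rpl7, a core protein of the subunit, had -1.70 and -1.71 in JA, -1.58 and -1.72 in JB and -1.46 and -1.45 in Amy. The 6 values lay within a narrow band, with a mean of -1.61 ± 0.13 (limma adjusted p = 6.62e-04), or 3.04-fold lower, but its 3 clones disagreed in size and its first clone alone stood at -0.62. Rpl3l, which encodes the paralog of Rpl3 found in heart and skeletal muscle, had -1.24 and -0.99 in JA, -1.11 and -1.21 in JB and -1.35 and -1.30 in Amy. Its mean was -1.199 ± 0.11 (limma adjusted p = 0.00144), or 2.30-fold lower. The 4 measured muscle markers were all lower as well (median -3.68), and their part in this value was not tested.

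Rpl34 had -0.78 and -0.35 in JA, -0.65 and -0.26 in JB and -0.77 and -0.40 in Amy, with a mean of -0.54 ± 0.07 (limma adjusted p = 0.0134). Rpl35 had -0.86 and -0.36 in JA, -0.44 and 0.06 in JB and -0.81 and -0.28 in Amy, with a mean of -0.45 ± 0.23 (limma adjusted p = 0.0418). Both were nearer 0 with the line in Cy5, and 1 of the 6 Rpl35 values lay above 0. The 9 large-subunit genes that were not called had means between -0.39 (Rpl36a) and 0.40 (Rpl13). Of the 10 calls, those of Rpl7 and Rpl3l were kept under every alternative setting tried. The other 8 were lost without JA (limma adjusted p from 0.0514 to 0.187). Without JB 4 were lost (Rpl21, Rpl19, Rpl18 and Rplp1, 0.0521 to 0.144), and without Amy 5 (Rpl21, Rpl6, Rpl18, Rpl35 and Rpl34, 0.0633 to 0.163). Rpl35 was also lost with centred arrays (0.0843). The Cy3 arrays alone lost Rpl21, Rpl6 and Rpl18 (0.0684 to 0.308), and the Cy5 arrays alone lost Rpl19, Rpl35, Rpl34 and Rplp1 (0.0653 to 0.322). Leaving out a single array lost Rpl18 (4 arrays in turn), Rpl35 (3 arrays), and Rpl19, Rpl21 and Rpl6 (2 arrays each), at 0.0507 to 0.152.

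Among the small-subunit genes only Rps27 and Rps15a were called, both lower. Rps27 had -0.94 and -1.44 in JA, -0.57 and -1.03 in JB and -0.18 and -0.37 in Amy. JA was lowest and Amy nearest 0 in both dye orientations, and the mean was -0.75 ± 0.46 (limma adjusted p = 0.0268), or 1.69-fold lower. Rps15a had -0.77 and -0.72 in JA, -0.38 and -0.37 in JB and -0.47 and -0.31 in Amy, with a mean of -0.50 ± 0.21 (limma adjusted p = 0.0275). Both calls were lost without JA (limma adjusted p = 0.127 for Rps27 and 0.131 for Rps15a), and that of Rps15a also without Amy (0.0779) and with centred arrays (0.0553).

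The other 9 small-subunit genes had means between -0.33 (Rps19) and 0.20 (Rps16). Rps16, the highest, had -0.46 and 0.15 in JA, 0.00 and 0.70 in JB and 0.28 and 0.54 in Amy. Rps13 had 0.32 and -0.16 in JA, 0.18 and 0.08 in JB and 0.28 and 0.16 in Amy. Neither kept a single sign on all 6 arrays. Rps19, mutated in human Diamond-Blackfan anemia, had -0.60 and -0.63 in JA, -0.33 and -0.25 in JB and -0.21 and 0.03 in Amy, with JA lowest. Rps24, another gene mutated in that anemia, had -0.57 and -0.59 in JA, 0.34 and 0.51 in JB and -0.42 and -0.47 in Amy. JB alone lay above 0 on both arrays, and the mean of -0.20 ± 0.55 was not called. Rps27l, the paralog of Rps27, had -0.18 and 0.14 in JA, 0.24 and 0.45 in JB and -0.48 and -0.28 in Amy, and its mean of -0.02 ± 0.36 was not called either. Rpsa, the ribosomal protein also known as the laminin receptor precursor, was below 0 on all 3 Cy3 arrays and above 0 on all 3 Cy5 arrays, at -0.08 ± 0.17.

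**Figure D2:**
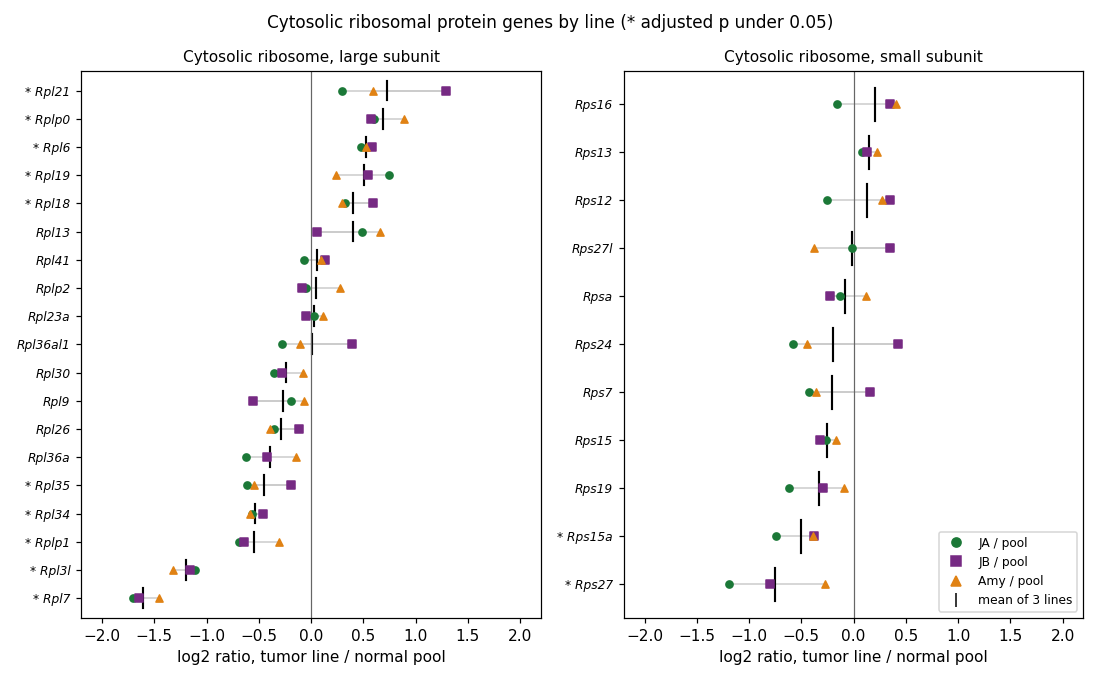
Log2 ratio (tumor line over normal pool) of each cytosolic ribosomal protein gene in JA (green circles), JB (purple squares) and Amy (orange triangles), each the mean of a dye swap, with the mean of the 3 lines as a black bar and called genes starred. Most genes lie within 1 of 0. Rpl7 and Rpl3l lie below -1 in all 3 lines, Rpl7 only through 1 of its 3 clones. Rpl21 and Rps24 are highest in JB.

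The gene that rose most was Mrps18b, which encodes a protein of the small subunit of the mitochondrial ribosome. It had 2.63 and 3.38 in JA, 1.83 and 2.58 in JB and 1.89 and 2.55 in Amy. JA was highest in both dye orientations, JB and Amy overlapped, and the mean was 2.48 ± 0.46 (SD, n = 3, limma adjusted p = 8.15e-04), or 5.56-fold higher. A second small-subunit gene, Mrps17, had 1.41 and 1.10 in JA, 0.92 and 0.95 in JB and 0.89 and 1.10 in Amy. Its mean was 1.06 ± 0.17 (limma adjusted p = 0.00248), or 2.09-fold higher. Of the other 3 small-subunit genes, Mrps21 fell and Mrps30 and Mrps28 were not called, at 0.25 ± 0.25 and -0.30 ± 0.35.

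Of the 20 large-subunit genes of the mitochondrial ribosome, 7 rose (35%, against 20.7% of all features). Mrpl30 had 1.00 and 1.72 in JA, 0.50 and 1.47 in JB and 0.62 and 1.23 in Amy, with a mean of 1.09 ± 0.24 (limma adjusted p = 0.00301). Each line was higher on its Cy5 array. Mrpl36 had 1.05 and 1.57 in JA, 0.84 and 1.25 in JB and 0.32 and 0.71 in Amy, with a mean of 0.96 ± 0.41 (limma adjusted p = 0.00970). Mrpl21 had 0.83 and 0.88 in JA, 1.18 and 0.85 in JB and 0.53 and 0.63 in Amy, with a mean of 0.82 ± 0.22 (limma adjusted p = 0.00631). In both of these Amy was the lowest line. Mrpl50 had 1.02 and 1.19 in JA, 0.34 and 0.86 in JB and 0.51 and 0.66 in Amy, with a mean of 0.76 ± 0.30 (limma adjusted p = 0.0116) and JA highest.

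Mrpl51, measured by 2 clones, had 0.77 and 0.86 in JA, 0.51 and 0.52 in JB and 0.61 and 0.62 in Amy, with a mean of 0.65 ± 0.15 (limma adjusted p = 0.00970). Mrpl27 had 0.26 and 0.75 in JA, 0.43 and 0.79 in JB and 0.11 and 0.34 in Amy, with a mean of 0.45 ± 0.20 (limma adjusted p = 0.0377). All 12 values of these genes were above 0. Mrpl32, whose precursor is cleaved by the mitochondrial m-AAA protease before it joins the ribosome, had 0.94 and -0.50 in JA, 1.996 and -0.07 in JB and 1.55 and 0.11 in Amy. Its mean of 0.67 ± 0.40 passed (limma adjusted p = 0.0287), but the Cy3 arrays averaged 1.49 and the Cy5 arrays -0.16, so that its direction was not the same in the 2 dye orientations. Its call was lost with the line as a random block (0.183) and kept with the replicate block added (0.0226).

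In the mitochondrial ribosome 4 genes fell. Mrpl58, a peptidyl-tRNA hydrolase that frees stalled mitochondrial ribosomes, had -0.79 and -0.48 in JA, -0.79 and -0.72 in JB and -1.48 and -1.18 in Amy. Amy was lowest on both arrays, and the mean was -0.91 ± 0.37 (limma adjusted p = 0.00983), while its 2 clones disagreed, at -1.90 and 0.08. Mrpl10, the stalk protein of the mitochondrial ribosome, had -0.77 and -0.93 in JA, -0.51 and -0.81 in JB and -0.85 and -0.90 in Amy, with a mean of -0.80 ± 0.12 (limma adjusted p = 0.00453). Mrps21 had -0.40 and -0.47 in JA, -0.38 and -0.25 in JB and -0.61 and -0.20 in Amy, with a mean of -0.38 ± 0.06 (limma adjusted p = 0.0369). The values of both genes were below 0 on every array.

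Mrpl52 had -0.09 and -2.48 in JA, 0.41 and -1.99 in JB and 0.00 and -0.71 in Amy. Its mean of -0.81 ± 0.47 passed (limma adjusted p = 0.0218), but the Cy3 arrays averaged 0.11 and the Cy5 arrays -1.73, and the call was lost with the line as a random block (0.173) and with the dye orientation as a replicate block (0.0909). Leaving out JA lost 7 of the 13 mitochondrial calls (Mrpl36, Mrpl21, Mrpl50, Mrpl51, Mrpl27, Mrps21 and Mrpl52, limma adjusted p from 0.0528 to 0.159). Without JB 3 were lost (Mrpl32, Mrpl27 and Mrps21, 0.0652 to 0.112), and without Amy the same 3 genes (0.0570 to 0.132). Mrps21 was also lost with centred arrays (0.0924), and leaving out a single array lost Mrps21 (5 arrays in turn), Mrpl32 and Mrpl52 (4 each) and Mrpl27 (3), at 0.0528 to 0.342. The 12 genes of this ribosome that were not called had means between -0.30 (Mrps28) and 0.38 (Mrpl20). Among them Mrpl16 spread widely, with 1.04 and 0.26 in JA, -0.65 and -0.05 in JB and 1.10 and 0.33 in Amy, and JB was the only line below 0.

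The eIF3 complex binds the small subunit and keeps it ready for the message. Of its 5 measured subunits 3 rose (60%, against 20.7% of all features) and none fell, against 32.8% of all features. Eif3b, a scaffold of the complex, had 1.24 and 1.44 in JA, 2.16 and 1.89 in JB and 1.04 and 1.09 in Amy. JB was highest on both arrays, and the mean was 1.48 ± 0.50 (SD, n = 3, limma adjusted p = 0.00400), or 2.78-fold higher. Eif3a, the largest subunit, had 0.59 and 0.45 in JA, 0.79 and 0.75 in JB and 0.57 and 0.66 in Amy, with a mean of 0.64 ± 0.13 (limma adjusted p = 0.00938). Eif3i had 0.65 and 0.94 in JA, 0.26 and 0.30 in JB and 0.52 and 1.05 in Amy, with JB lowest and a mean of 0.62 ± 0.30 (limma adjusted p = 0.0219). Eif3e and the cap-binding subunit Eif3d were not called, at 0.19 ± 0.11 and -0.25 ± 0.19. Eif3d had -0.29 and -0.63 in JA, -0.08 and -0.10 in JB and -0.26 and -0.13 in Amy, all below 0.

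Of 7 measured genes with Eif4 symbols, whose products act around the cap of the message, 2 rose and none fell. The shares over all features were 20.7% higher and 32.8% lower. Eif4ebp1, which binds the cap-binding protein eIF4E and holds translation back, had 1.15 and 1.57 in JA, 1.34 and 1.52 in JB and 0.50 and 0.74 in Amy. Amy was lowest, and the mean was 1.14 ± 0.45 (limma adjusted p = 0.00701), or 2.199-fold higher. Eif4h, a cofactor of the helicase eIF4A, had 1.52 and 1.203 in JA, 0.37 and 0.25 in JB and 0.59 and 0.92 in Amy. JA was highest, with a mean of 0.81 ± 0.53 (limma adjusted p = 0.0293). The other cofactor Eif4b (0.47 ± 0.38), the helicases Eif4a1 (0.41 ± 0.32) and Eif4a2 (-0.07 ± 0.10), the scaffold Eif4g3 (0.15 ± 0.23) and the cap-binding Eif4e3 were not called. Eif4a1 and Eif4b passed with centred arrays (limma adjusted p = 0.0394 and 0.0423). Eif4a2 had 0.14 and -0.52 in JA, 0.98 and -1.04 in JB and 0.24 and -0.25 in Amy, above 0 in Cy3 and below 0 in Cy5 in every line.

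Factors around the initiator transfer RNA gave calls in both directions. Eif2d, which can deliver the initiator transfer RNA and also helps to take spent ribosomes apart, had 1.28 and 1.63 in JA, 1.35 and 1.27 in JB and 1.11 and 1.49 in Amy. The lines overlapped, and the mean was 1.35 ± 0.09 (limma adjusted p = 9.56e-04), or 2.56-fold higher. Eif2b2, the beta subunit of the exchange factor that recharges eIF2 with GTP, had -1.01 and -0.60 in JA, -0.77 and 0.03 in JB and -0.91 and -0.47 in Amy. It was the only initiation factor that fell, with a mean of -0.62 ± 0.23 (limma adjusted p = 0.0153). Eif2ak2, the double-stranded RNA kinase PKR that shuts eIF2 down, had 0.50 and 0.15 in JA, 0.62 and 0.11 in JB and 0.40 and 0.19 in Amy. Its 6 values were above 0, its mean of 0.33 ± 0.04 was just short of the threshold (limma adjusted p = 0.0557), and it passed with centred arrays (0.0223). Eif5a, the hypusine-bearing factor that eases the ribosome past difficult stretches of peptide, had 0.40 and 0.97 in JA, 0.52 and 0.88 in JB and -0.20 and 0.44 in Amy. Its mean of 0.50 ± 0.33 passed narrowly (limma adjusted p = 0.0487). Eif1ax, which acts in scanning, was at 0.22 ± 0.16 and the subunit-joining GTPase Eif5b at -0.03 ± 0.27, and neither was called.

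Without JA, 5 of the 8 initiation factor calls were lost (Eif4ebp1, Eif4h, Eif3i, Eif5a and Eif2b2, limma adjusted p from 0.0614 to 0.217). Without Amy 3 were lost (Eif4h, Eif3i and Eif2b2, 0.0784 to 0.109), and without JB Eif5a (0.127). The call of Eif5a was lost with each of 5 arrays left out in turn (0.0562 to 0.183) and among the Cy3 arrays alone (0.321). Eif2b2 was lost without the JB array in Cy3 (0.0991) and among the Cy5 arrays alone (0.153). Eif2d was the only initiation factor whose call held under every alternative tried.

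Both genes with Eef symbols were called, in opposite directions. Eef2, the GTPase that moves the ribosome by a codon, had 0.30 and 0.35 in JA, 0.62 and 0.57 in JB and 0.71 and 0.94 in Amy. JA was lowest, and the mean was 0.58 ± 0.25 (limma adjusted p = 0.0217), or 1.49-fold higher. Eef1e1, a scaffold protein of the multi-tRNA-synthetase complex rather than an elongation factor itself, had -0.53 and -1.32 in JA, -0.46 and -0.53 in JB and -0.66 and -1.34 in Amy. All 6 values were below 0, with a mean of -0.81 ± 0.27 (limma adjusted p = 0.00847). Without Amy neither was called (limma adjusted p = 0.102 for Eef2 and 0.0519 for Eef1e1), and Eef1e1 was also lost without JA (0.0664).

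**Figure D3:**
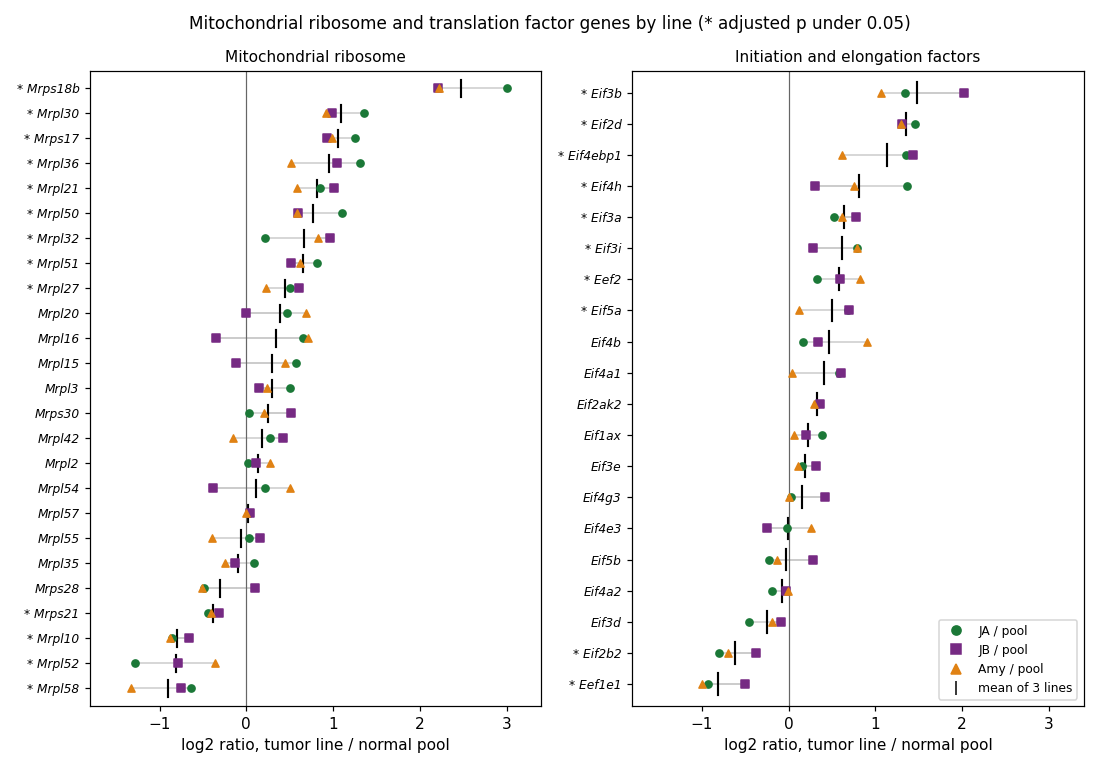
Log2 ratio (tumor line over normal pool) of mitochondrial ribosomal protein genes (left) and of initiation and elongation factor genes (right) in JA (green circles), JB (purple squares) and Amy (orange triangles), with the mean of the 3 lines as a black bar and called genes starred. Mrps18b stands apart at the top left with a mean of 2.48, and Eif3b, Eif2d and Eif4ebp1 lead the right panel with means above 1.

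For 17 of the 75 genes several clones were spotted, 37 clones in all, which gives further measurements under the same gene symbol. Whether the clones of a gene report the same message was not tested. The range between the clones of a gene had a median of 0.15, and in 12 of 17 genes it was under 0.5. The 2 clones of Rpl21 stood at 0.73 and 0.73, those of Rplp1 at -0.56 and -0.54, those of Eif2d at 1.31 and 1.39 and those of Rpl35 at -0.41 and -0.49. The 3 clones of Rplp0 stood at 0.88, 0.64 and 0.54. In 3 genes the clones were over 1 apart. Rpl7 had 2 clones at -0.62 and -0.54 and the third at -3.66, so all 3 lay below 0 while the size of the fall differed. Mrpl58 had 1 clone at -1.90 and another at 0.08, and Rpl23a had 1 clone at 0.84 and the other two at -0.35 and -0.40. The gene mean of Rpl23a, 0.03 ± 0.08, was not called, yet its first clone alone was (limma adjusted p = 0.0145). In 3 more uncalled genes a single clone passed: the first of Mrpl15 (0.57, limma adjusted p = 0.0460), the second of Mrpl3 (0.51, 0.0312) and the first of Mrpl55 (-0.49, 0.0494). Mrpl55, at -0.49 and 0.35, was the other gene besides Mrpl58 and Rpl23a with clones on both sides of 0. Mrpl55 had -0.16 and 0.23 in JA, 0.10 and 0.23 in JB and -0.51 and -0.29 in Amy. Rpl23a had -0.23 and 0.28 in JA, -0.31 and 0.21 in JB and -0.04 and 0.27 in Amy, below 0 in Cy3 and above 0 in Cy5 in every line. The other 58 genes rest on a single clone, and ribosomal protein cDNAs can also bind messages of near-identical copies.

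Besides Rpl23a and Mrpl55, 6 genes with several clones were not called, among them Rps19, described above. Mrpl15 had 0.52 and 0.63 in JA, -0.08 and -0.15 in JB and 0.33 and 0.55 in Amy, and Mrpl3 had 0.72 and 0.29 in JA, 0.36 and -0.07 in JB and 0.18 and 0.29 in Amy. JB was the lowest line for both. Mrpl35 had 0.04 and 0.14 in JA, -0.23 and -0.03 in JB and -0.27 and -0.22 in Amy, with JA alone above 0. Rpl30 had -0.46 and -0.24 in JA, -0.32 and -0.24 in JB and -0.18 and 0.01 in Amy. Rpl9 had -0.34 and -0.05 in JA, -0.64 and -0.46 in JB and -0.11 and -0.03 in Amy. All but 1 of these Rpl30 and Rpl9 values lay below 0.

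**Figure D4:**
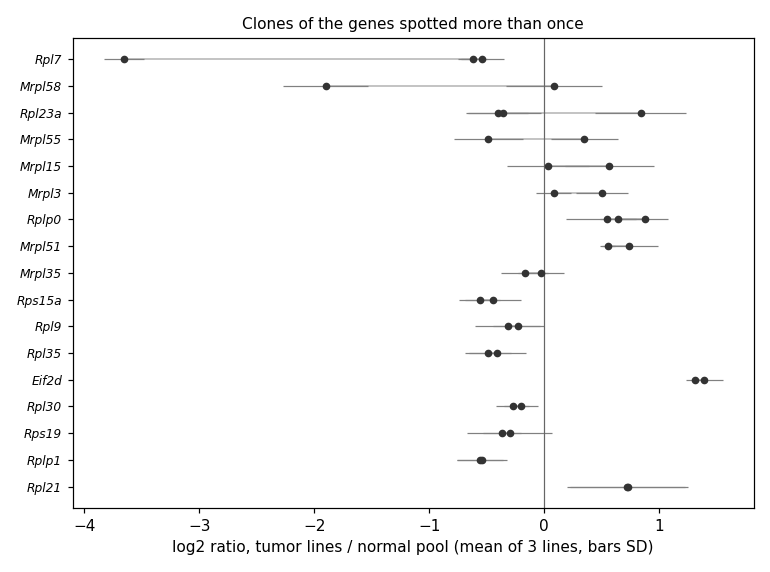
Mean log2 ratio over the 3 tumor lines of each clone of the 17 genes spotted as several clones (points, bars SD over lines, n = 3), sorted by the range between clones. Most clones of a gene lie close together, while Rpl7, Mrpl58 and Rpl23a have clones over 1 apart.

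The cytosolic ribosomal genes had a different median in each dye orientation. It was 0.04 where the line carried Cy5 and -0.25 where it carried Cy3, and the median difference per gene was 0.22, against -0.01 for all features. For the small subunit the class median was 0.03 with the line in Cy5 and -0.38 with the line in Cy3, so that its direction followed the dye. The large-subunit median changed sign with the dye as well, at 0.06 in Cy5 and -0.22 in Cy3. The medians of the mitochondrial ribosome (0.17 in Cy5, 0.34 in Cy3) and of the initiation factors (0.27 in Cy5, 0.47 in Cy3) were above 0 in both. For 18 of the 75 genes the 2 orientations had means of opposite sign (24.0%), against 19.1% of all features. A difference of 1 or more between orientations was seen in Mrpl52 (-1.83), Mrpl32 (-1.65) and Eif4a2 (-1.06), given as Cy5 minus Cy3, or 4% of the members against 6.16% of all features. Averaging the 2 arrays of a line removes a dye effect of equal size from the mean, and the part of the dye in single calls was not tested further than by fitting each orientation alone.

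**Figure D5:**
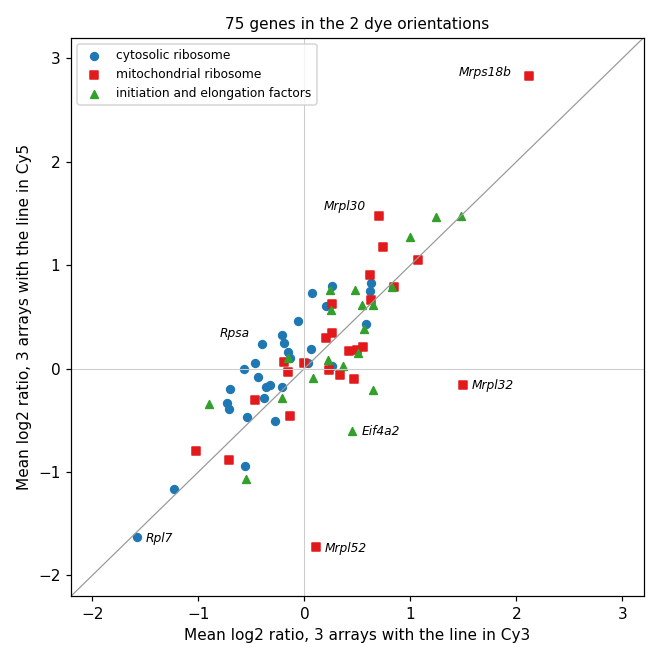
Mean log2 ratio of the 75 genes where the line carried Cy3 (horizontal axis, 3 arrays) and where it carried Cy5 (vertical axis, 3 arrays), by class, with the line of equality. Most cytosolic ribosomal genes (blue circles) lie above the line, while Mrpl52, Mrpl32 and Eif4a2 lie farthest below it.

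With 1 dye swap per line, differences of single lines have no test and are described by size. A ratio of at least 1 on both arrays of a line was reached above 0 by 8 members in JA (10.7%, against 7.42% of all features), 5 in JB (6.67%, against 5.93%) and 3 in Amy (4%, against 4.97%). Below 0 it was reached by 1 member in JA (1.33%, against 13.6% of all features), 2 in JB (2.67%, against 11.4%) and 3 in Amy (4%, against 12%). Mrps18b, Eif3b and Eif2d were past this size above 0 in all 3 lines, and Rpl7 below 0 in all 3. Eif4ebp1 reached it in JA and JB, Eif4h, Mrps17, Mrpl36 and Mrpl50 in JA, and Rpl21 in JB. Rpl3l reached it below 0 in JB and Amy, and Mrpl58 in Amy. For Rpl7 and Mrpl58 this size rests on 1 clone each. The Rpl7 clones had means of -0.62, -0.54 and -3.66 over the lines. In Amy 1 clone of Mrpl58 had -2.54 and -2.02 (line in Cy3, then in Cy5), and the other had -0.43 and -0.35.

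Between lines no member differed by 1 or more in both dye orientations for any pair of lines. Over all features such differences were seen upwards in 1.17% and downwards in 2.51% for JA minus JB, in 0.557% and 1% for JA minus Amy, and in 2.37% and 1.82% for JB minus Amy. The range of the 3 line means had a median of 0.48 for the members, against 0.44 for all features. JB was the highest line for 35 members (46.7%, against 39.2% of all features), Amy for 24 (32%, against 29.2%) and JA for 16 (21.3%, against 31.7%). JA was the lowest line for 29 members (38.7%, against 31.8% of all features), Amy for 28 (37.3%, against 36.9%) and JB for 18 (24%, against 31.3%). The widest ranges were those of Mrpl16 (1.06, lowest in JB), Eif4h (1.05, lowest in JB), Rps24 (1.004, highest in JB) and Rpl21 (0.997, highest in JB). Mrps18b was 0.80 higher in JA than in JB and 0.79 higher than in Amy.

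Other genes of translation were read from lists that were chosen with earlier results of these data known. As background for the counts of these lists, 20.7% of all features were called higher and 32.8% lower. In ribosome biogenesis, 4 of 9 measured genes rose and none fell, with a median of 0.67. They were nucleolin (Ncl) at 1.63 ± 0.42 (limma adjusted p = 0.00215), Nop58 and Nhp2 of the small nucleolar ribonucleoproteins at 0.89 ± 0.49 and 0.87 ± 0.35, and the nucleolar GTPase Gnl3 at 0.67 ± 0.12. The calls of Nop58, Nhp2 and Gnl3 were lost without JA (limma adjusted p = 0.0995, 0.0556 and 0.0590), and that of Gnl3 also without the Amy array in Cy3 (0.0794). Tufm, the mitochondrial elongation factor Tu, was the only measured gene of 16 listed mitochondrial translation factors and rose to 0.92 ± 0.25 (limma adjusted p = 0.00516). Among genes of termination, poly(A) binding and message control, 1 of 6 rose, the release factor Etf1 at 0.82 ± 0.31, and 4 fell, with a median of -0.70. The growth-related protein Tpt1 stood at -0.87 ± 0.27, the poly(A)-binding-protein partner Paip1 at -0.72 ± 0.32 and the message-binding repressor Pum2 at -0.71 ± 0.16. These 4 calls were also lost without JA (0.0722, 0.0526, 0.0520 and 0.0551), and that of Paip1 without Amy (0.0584).

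Among aminoacyl-tRNA ligases 2 of 6 rose and 1 fell, with a median of 0.44. The alanine ligase Aars1 fell, at -1.65 ± 0.40 (limma adjusted p = 0.00193). The arginine ligase Rars1 stood at 0.62 ± 0.28 (limma adjusted p = 0.0201), a call lost without JA (0.103). Of 10 measured genes that signal to the translation apparatus, 3 rose and 5 fell, with a median of -0.22. The kinase Map2k1 stood at 1.58 ± 0.27 (limma adjusted p = 0.00122), and Ppp1r15a, which helps to restore eIF2 activity, at 1.28 ± 0.57 (0.00827). The S6 kinase Rps6kb2 stood at -1.45 ± 0.21 (0.00121) and the lipid kinase subunit Pik3ca at -0.94 ± 0.13 (0.00296). The other S6 kinase Rps6kb1 was called in the opposite direction, at 0.35 ± 0.04 (limma adjusted p = 0.0454). That call was lost with each line left out in turn (0.0889 to 0.165).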

How the data were processed

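Total RNA of 3 tumor lines was measured against a pool of 2 normal lines on 6 cDNA arrays, 2 per line with exchanged dyes, per the labels. The deposited values are taken as log2 ratios, 1 per spot; the authors' scanner, background correction, normalization and spot filter, and the log base, are not given in the sources used here. Intensities were not used. Of 16128 spots, 8084 carried 1 gene symbol, and 8076 of these matched RefSeq genes of GRCr8 by identifier. The pattern also matched the annotation of 3 clones with several gene entries, which were not used.

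Spots were averaged per symbol (else per clone), then the 2 arrays of a line, and the 3 line means were tested against 0 with limma 3.58.1 (lmFit, eBayes) in R 4.3.3, two-sided, Benjamini-Hochberg over 7180 features, threshold 0.05. The pool's own spread is left out. The number of arrays limits the precision. The fit was also run on simulated data. There far fewer features changed, all upwards, and the pool had no spread, so that run cannot judge the calls made here. Replicate numbers are dye orientations per the labels; deviations of same-numbered arrays correlated at 0.613, 0.552 and 0.526 between lines, so they pair the arrays. Every member could be named. Values on all 6 arrays were given for members that passed, that differed by 1 or more on both arrays of a line or between lines in both orientations, or that had several clones, and for the 2 highest and 2 lowest means of each class; for some others they were chosen after their values were seen. Of each further list, up to 4 genes were named, the largest passing means with a single sign throughout. Rps6kb1 was named besides these, as the paralog of Rps6kb2. Members, lists and tests were chosen with earlier results of these data known. Alternatives covered centring, scaling, variance, pool spread, blocks, dyes, spots, left-out lines or arrays, and thresholds. Without intensities, no low-value filter could be tried. Figures were drawn with matplotlib 3.10.9.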

Additional observations from a re-analysis of the deposited data

Results flagged for a closer look

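For 12 of the 75 genes (16%, against 10.4% of all features) both arrays of a tumor line lay on one side of 0 and both arrays of another line on the other. None of these differences was tested, since each line has a single dye swap. They are given as differences of line means on the log2 scale. In the small subunit, JA minus JB was -1.004 for Rps24 and -0.60 for Rps12. JA minus Amy was -0.53 for Rps12, and JB minus Amy was 0.87 for Rps24 and 0.72 for Rps27l. In the large subunit, Rpl36al1 differed by -0.67 for JA minus JB and by 0.49 for JB minus Amy, and the stalk gene Rplp2 by -0.33 for JA minus Amy. Some array values behind these flags lay close to 0. Rplp2, for example, had -0.10 and -0.005 in JA and 0.10 and 0.46 in Amy.

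In the mitochondrial ribosome, JA minus JB was 1.00 for Mrpl16, 0.69 for Mrpl15 and 0.22 for Mrpl35, and JA minus Amy was 0.34 for Mrpl35. JB minus Amy was -1.06 for Mrpl16, -0.55 for Mrpl15, -0.89 for Mrpl54 and 0.56 for Mrpl55. In Mrpl55 neither of the 2 clones alone had lines on opposite sides of 0. Its first clone lay below 0 on every array (-0.35 and -0.09 in JB, -0.98 and -0.64 in Amy). Its second clone had 0.54 and 0.55 in JB and -0.04 and 0.07 in Amy. In Mrpl15 only the second clone had lines on opposite sides of 0, and in Mrpl35 only the first. Among the initiation factors, Eif4e3 differed by -0.51 for JB minus Amy and Eif5b by -0.50 for JA minus JB. None of the 12 genes was called over the 3 lines. Picking genes with lines on opposite sides of 0 makes such a call unlikely, so this is no separate result.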

How the results depend on the processing

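Of the 35 calls, 4 (Eif2d, Rpl3l, Rpl7 and Mrpl10) were kept in all 22 alternatives, and 10 in all but the fits without variance moderation and with a spread given to the pool. Without moderation 7 members were called (3 higher, 4 lower), and with the pool given a spread 10 (7 higher, 3 lower). At a threshold of 0.01, 16 were called (11 higher, 5 lower). Leaving out a line or an array gave 12 to 33 calls, 8 to 21 higher and 4 to 13 lower, with the fewest without JA. From the Cy5 arrays alone 8 were lower. Mrpl32 reversed to -0.16 on the Cy5 arrays (limma adjusted p = 0.474) and Mrpl52 to 0.11 on the Cy3 arrays (0.607); the cause was not tested. With the replicate block, that is the dye orientation, 38 were called (25 higher, 13 lower), and of the 35 calls only that of Mrpl52 was lost; with the line as a random block alone, those of Mrpl32 and Mrpl52 were. Centring gave 27 higher and 10 lower. For single lines and between lines only the totals over all lines and directions were compared, and these stayed within 1.5 times of those reported. The count of each line and direction was not compared. With spots that disagreed between dyes left out, no value was left for Mrpl32, Mrpl52, Eif4a2 and Eif1ax. The values are ratios alone, so signal over background was not assessed.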
